A study of Mus musculus with 8 samples.

Results

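The cytochrome P450 genes of families 1 to 4 (Cyp1 to Cyp4) were taken as all genes of the count table whose symbol is Cyp, a family number from 1 to 4, a subfamily letter and a gene number. They were 77 of 19348 genes: 3 of family Cyp1, 46 of Cyp2, 9 of Cyp3 (all Cyp3a) and 19 of Cyp4. RNA-seq had been carried out on liver and on epididymal white adipose tissue (eWAT, the fat beside the epididymis) of male C57BL/6 mice aged 12 weeks, kept on chow and a light/dark cycle and fasted for 16 h. Each tissue had 2 libraries labelled Crtc1-/- (a whole-body CRISPR/Cas9 deletion of the CREB coactivator Crtc1) and 2 labelled Crtc1+/+ from littermates, 8 libraries in all. The question put to these genes was whether their levels differed between the labelled genotypes within each tissue.

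P450s are heme enzymes of the endoplasmic reticulum that insert an oxygen atom into a substrate with electrons passed on by the reductase Por. Families Cyp1 to Cyp3 oxidise drugs, pollutants and steroids, and most Cyp4 enzymes oxidise the end of fatty acid chains. Hepatocytes are their main site, many liver members are induced through the receptors Ahr, Car (Nr1i3), Pxr (Nr1i2) and Ppara, and in rodents several differ between the sexes under the pulse pattern of growth hormone.

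Total counts were between 16560085 and 19721481 per library. Crtc1 itself was not lower in the libraries labelled Crtc1-/- (log2 fold change 0.89, adjusted p = 0.184 in liver, and 0.48, adjusted p = 0.396 in eWAT, edgeR), so genotypes are given as labels throughout; these counts cover the whole gene and do not test the deletion of a part of it. The study's methods name 2 mice per genotype, and no source used here ties a liver library to an eWAT library of the same mouse. The eWAT libraries differed in what tissue they held. The 16 epididymis markers made up 7.77% and 9.06% of counts in eWAT of label Crtc1+/+ against 0.00235% and 0.00116% in eWAT of label Crtc1-/-, and the 12 adipocyte markers 0.289% and 0.478% against 4.82% and 2.31%. The 12 measured hepatocyte markers made up 9.79% of counts in replicate 2 of eWAT of label Crtc1-/-, 0.0721% to 0.584% in the other eWAT libraries and 17.9% to 22.3% in liver. No hepatocyte marker was at 0 in any library. In liver the epididymis markers made up 0.00815% and 0.00113% of counts in the Crtc1-/- label and 0.000218% and 0.000179% in the Crtc1+/+ label. The 5 fibroblast markers made up 0.00956% and 0.0210% against 0.00553% and 0.00704%. Their part in the liver values was not tested. In such bulk samples fewer cells of a type and less RNA per cell cannot be told apart.

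Many members are near copies of a neighbour, and the first point to fix is which of their counts can be told apart. By RefSeq gene bounds on GRCm38.p6 most lie in clusters by subfamily. There are 14 Cyp2c genes on chromosome 19, 8 Cyp2d genes on chromosome 15 and 9 Cyp3a genes on chromosome 5. Cyp2c23 (chr19:44005022-44029256) and Cyp3a13 (chr5:137892933-137925610) lie far from the others of their subfamily. Chromosome 4 holds 7 Cyp4a genes with Cyp4b1 and Cyp4x1, chromosome 7 holds 4 Cyp2a and 5 Cyp2b genes, and chromosome 17 holds 8 of the 9 Cyp4f genes. Of all 100-base windows in the annotated transcripts of Cyp3a41a, 90.8% also occurred in a transcript of another gene, and 88.2% did so for Cyp3a41b. The share was 35.8% for Cyp4a12a, 36.2% for Cyp4a12b, 35.4% for Cyp2c69, 34.4% for Cyp2c40 and 23.7% for Cyp2c67. It was over 10% in 14 of the 77 members and 0 in 31. Between 27.3% and 36.4% of members had a count that was not a whole number in the liver libraries, against 5.44% to 6.25% of all genes there, so reads had been divided between genes more often for P450s than for the table as a whole.

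The sequences just before the gene show how close the copies of the 2 members that changed in liver are. They are from RefSeq (GRCm38.p6), 5′ to 3′, in lower case, with the bases that differ between both copies in capitals, and they stop at the first annotated base of either copy. Cyp3a41a (chr5:145720139-145720386, minus strand) and Cyp3a41b (chr5:145584733-145584980, minus strand) differed at 1 of 248 bases, T222G counted from the 5′ end. Cyp2b13 (chr7:26061245-26061387, plus strand) and Cyp2b9 (chr7:26173159-26173301, plus strand) differed at 2 of 143 bases, C48T and T104C.
Cyp3a41a: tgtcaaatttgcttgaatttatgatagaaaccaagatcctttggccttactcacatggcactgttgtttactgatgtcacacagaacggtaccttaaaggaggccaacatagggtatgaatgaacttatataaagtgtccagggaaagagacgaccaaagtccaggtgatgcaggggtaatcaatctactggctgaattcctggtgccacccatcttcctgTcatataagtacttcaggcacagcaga
Cyp3a41b: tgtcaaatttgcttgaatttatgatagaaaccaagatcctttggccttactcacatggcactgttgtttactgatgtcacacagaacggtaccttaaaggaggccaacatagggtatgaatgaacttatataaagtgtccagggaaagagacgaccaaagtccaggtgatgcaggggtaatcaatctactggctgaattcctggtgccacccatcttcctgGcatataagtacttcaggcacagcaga
Cyp2b13: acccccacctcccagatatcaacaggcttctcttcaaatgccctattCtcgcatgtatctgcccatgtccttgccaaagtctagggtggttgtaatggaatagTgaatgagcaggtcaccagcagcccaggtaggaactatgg
Cyp2b9: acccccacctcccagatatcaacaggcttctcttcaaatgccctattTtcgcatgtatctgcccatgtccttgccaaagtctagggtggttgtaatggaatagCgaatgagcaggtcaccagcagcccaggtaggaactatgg
Both Cyp2b windows held 1 match to AGGTCA, a site for nuclear receptors, and both Cyp3a41 windows held none. On both strands, AGGTCA occurred in 14.0% of the 32851 windows of 250 bases before an annotated start and in 16 of the 70 such windows of 63 members. The STAT element TTCNNNGAA occurred in 7.02% of all windows, in 4 of the 70 and in none of the 4 printed here. A match describes letters only and is not a binding site.

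The P450s took 3.35% to 4.32% of all counts in the liver libraries. Per length (FPKM, fragments scaled to transcript length and library size), 5 genes carried 67.8% to 73.5% of the summed P450 level there. Cyp2e1, which oxidises ethanol and acetone, was first with 27.9% to 33.5% of it, at 6364 and 7974 FPKM in liver of label Crtc1+/+ and 6440 and 5379 in liver of label Crtc1-/-. The fatty acid omega-hydroxylases Cyp4a10 and Cyp4a14, targets of Ppara that fasting is known to raise, followed with 15.7% to 21.8% and 7.97% to 15.5%. Cyp3a11, the main Cyp3a of mouse liver, held 4.56% to 7.30%. The largest subfamily sums in liver of label Crtc1+/+ were thus Cyp4a (7852 and 7051 FPKM) and Cyp2e, ahead of Cyp2d (3326 and 3436), Cyp3a (1836 and 1689) and Cyp2c (1344 and 1700). Cyp1b, Cyp2g, Cyp2s, Cyp2t, Cyp2w and Cyp4x each summed to at most 1.08 FPKM in every liver library. One member, Cyp2c65, had no count in any library.

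**Figure D1:**
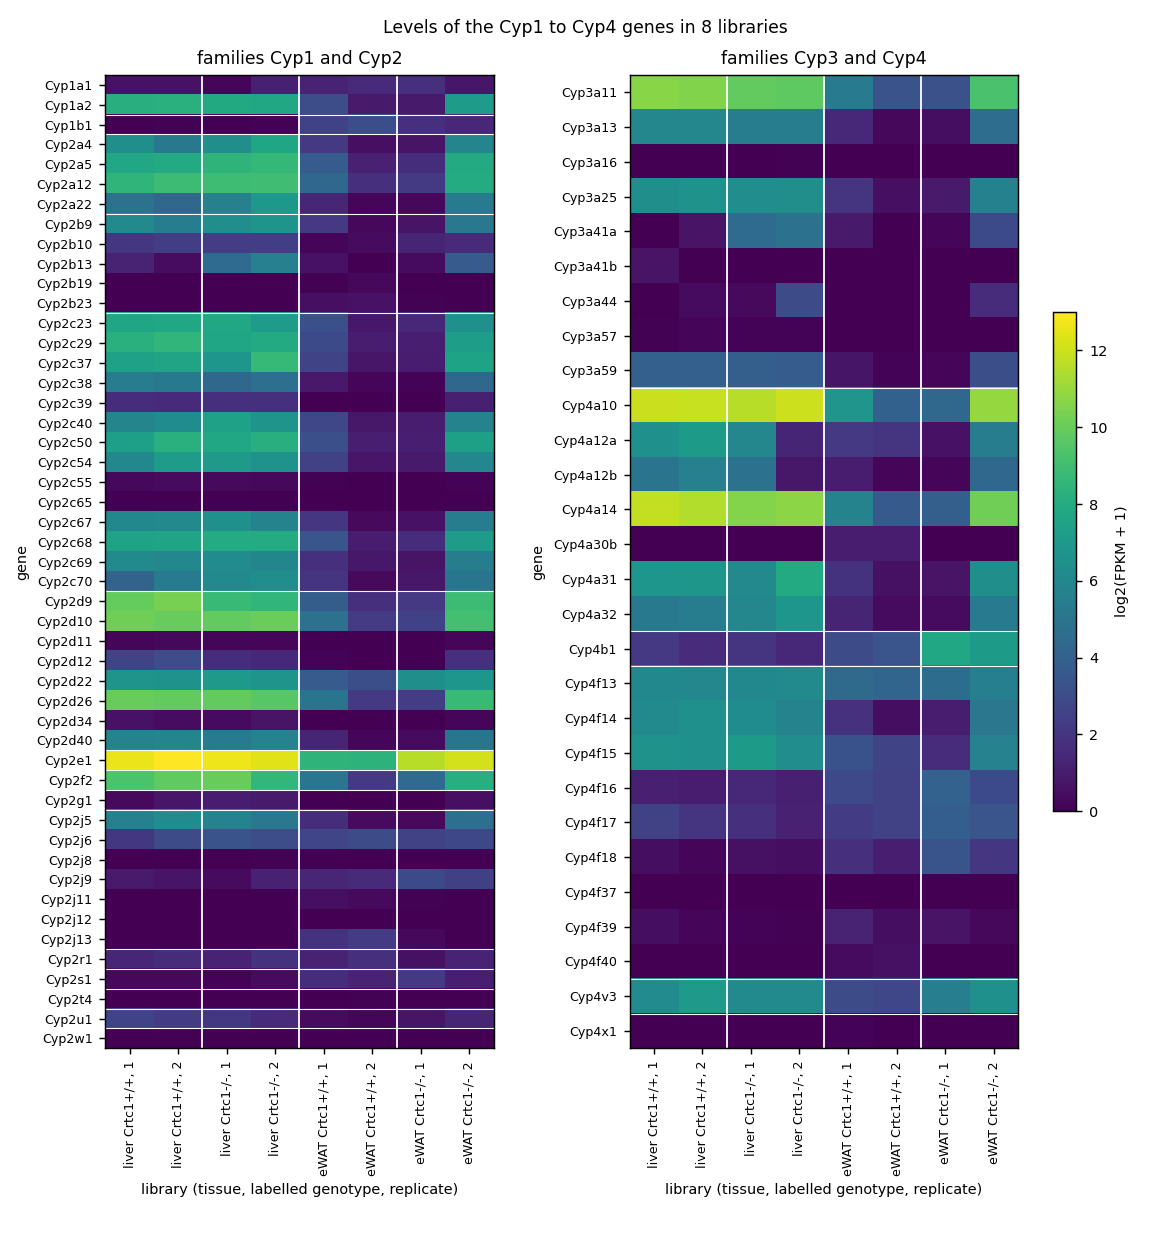
Level of each Cyp1 to Cyp4 gene (rows, by subfamily) in each library (columns), as colour on a log2(FPKM + 1) scale. Cyp2e1, Cyp4a10, Cyp4a14, Cyp3a11 and several Cyp2d genes are brightest in the 4 liver libraries, and replicate 2 of eWAT of label Crtc1-/- shows most of the liver pattern.

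In liver the labelled genotypes differed for 2 P450s, both higher in the libraries labelled Crtc1-/-: Cyp3a41a and Cyp2b13. edgeR's quasi-likelihood test (Benjamini-Hochberg adjusted p under 0.05 over all genes) called these 2 of the 56 members tested, where 0.0854% of all genes were called (0.0598% higher, 0.0256% lower). At the study's own limit (a log2 fold change above 1 in size, at an unadjusted p below 0.01) 8 members passed, 5 higher and 3 lower (6 and 2 with upper-quartile or library-size scaling), where 4.27% of all genes passed (2.84% higher, 1.43% lower). By family these 8 were 5 of the 35 tested Cyp2 genes, 1 of 5 Cyp3a genes, 2 of 14 Cyp4 genes and none of 2 Cyp1 genes. Both Crtc1-/- libraries lay above both Crtc1+/+ libraries for 14 members and below both for 19, where 25.8% and 26.4% of all genes did so. An unadjusted p under 0.05 was found for 18 of the 56, where 17.3% of all genes had one, and DESeq2 called 9, where it called 2.66% of all genes. The median log2 fold change of the 56 was -0.10, and 0.00 over all genes tested. The count of 2 was 20 of 59 tested without replicate 1 labelled Crtc1-/- (12.5% of all genes were then called), 5 of 58 without replicate 2 (1.46%) and 1 of 59 without replicate 2 labelled Crtc1+/+ (0.00817%).

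**Figure D2:**
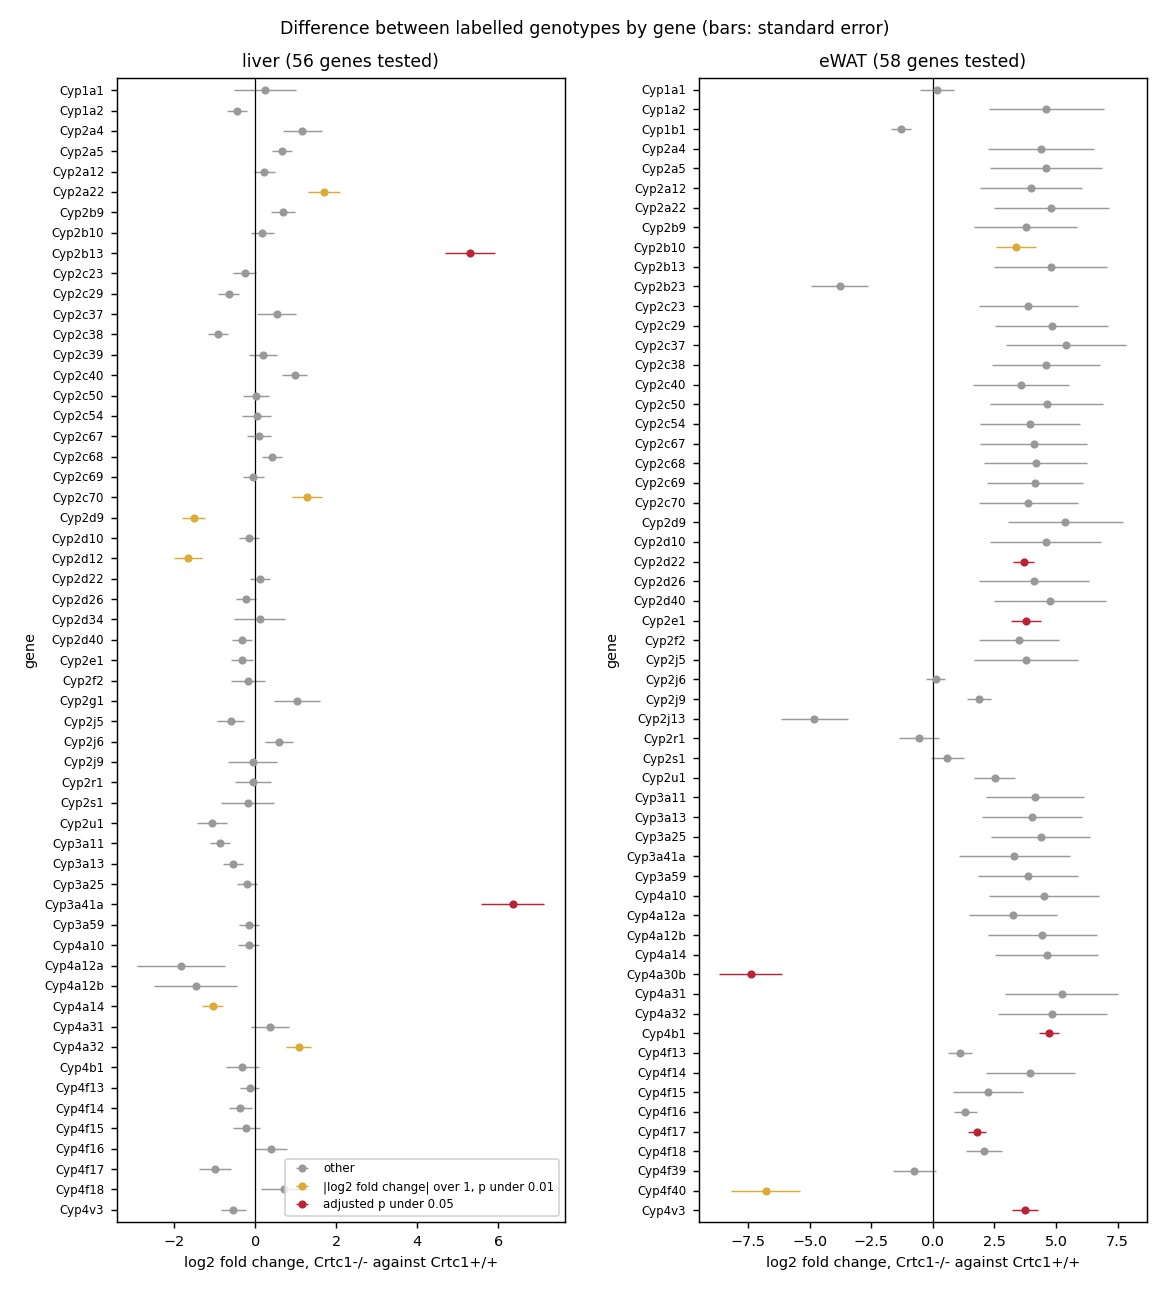
Log2 fold change of each tested Cyp1 to Cyp4 gene, libraries labelled Crtc1-/- against Crtc1+/+, in liver (left, 56 genes) and eWAT (right, 58 genes), with bars for the standard error. In liver Cyp3a41a (6.36) and Cyp2b13 (5.30) stand apart, and in eWAT most genes lie near 4 with wide bars while Cyp4b1, Cyp2e1, Cyp2d22 and Cyp4v3 have narrow ones. The values of Cyp4a30b and Cyp4f40, at 0 in a whole group, depend on the prior count.

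Cyp3a41a (NCBI Gene 53973, chr5:145694049-145720136) is a Cyp3a enzyme known as female-specific in adult mouse liver. Its counts were 768 and 794 in liver of label Crtc1-/- and 0 and 20 in liver of label Crtc1+/+ (43.3 ± 4.31 against 0.525 ± 0.742 counts scaled to library size, CPM, SD, n = 2). The groups did not overlap, and the log2 fold change was 6.36 (standard error, SE, 0.78, adjusted p = 0.0418, edgeR). Cyp3a41b had 21 counts in replicate 1 of liver of label Crtc1+/+ and 0 in all 7 other libraries, so the Crtc1+/+ libraries carried 21 and 20 counts of the pair, the whole of each given to a different copy. With both copies summed, a fit chosen after the values were seen, the log2 fold change was 5.34 (SE 0.32, adjusted p = 0.000269). The call on Cyp3a41a alone was lost in 4 alternatives, DESeq2 (adjusted p = 0.115) among them, and the value was 12.65 without replicate 2 labelled Crtc1+/+, which leaves no count on that side.

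Cyp2b13 (NCBI Gene 13089) is another female-predominant gene, next to Cyp2b9 in the chromosome 7 cluster. Its counts were 691 and 1345 in liver of label Crtc1-/- against 44.6 and 11 in liver of label Crtc1+/+ (57.4 ± 29.9 against 1.43 ± 1.21 CPM, SD, n = 2). Every library labelled Crtc1-/- was above every one labelled Crtc1+/+, with a log2 fold change of 5.30 (SE 0.61, adjusted p = 0.0332, edgeR). Cyp2b9 had 2750 and 3065 counts against 2385 and 1483, groups that did not overlap but whose log2 fold change of 0.69 missed the limit (SE 0.30, adjusted p = 0.276). Cyp2b13 made up 20.1% and 30.5% of the pair's counts in liver of label Crtc1-/- and 1.84% and 0.736% in liver of label Crtc1+/+. The pair shared only 1.18% of 100-base windows, against 88.4% for Cyp3a41a with Cyp3a41b, and its summed log2 fold change was 1.11 (adjusted p = 0.163). Without replicate 2 labelled Crtc1+/+ the adjusted p of Cyp2b13 was 0.237 at a log2 fold change of 4.62. Cyp2b10, the classic target of the receptor Car, was at 7.29 and 7.41 CPM against 5.75 and 7.24 and was not called (0.18, adjusted p = 0.784).

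Cyp3a41a and Cyp2b13 both belong to a list of 10 P450s known to be female-predominant in mouse liver. That list was chosen with results of these data known, so the counts that follow describe it and do not test it. Of its 7 members tested in liver, 2 rose and none fell, where 0.0598% and 0.0256% of all genes did. Both Crtc1-/- libraries lay above both Crtc1+/+ libraries in 5 of the 7, where 25.8% of all genes did so, and the median log2 fold change was 0.97 against 0.00 over all genes. Cyp2c40 had 5352 and 2944 counts against 1900 and 2538 (0.97, SE 0.31, adjusted p = 0.202). Cyp2a4, a testosterone hydroxylase, overlapped between the groups, with 2486 and 5348 counts against 2704 and 1119 (1.16, adjusted p = 0.264). The smallest differences were those of Cyp2c39 (0.19) and Cyp2c69 (-0.05, and 0.03 with upper-quartile scaling). Cyp3a44 was too low for the test, with 208 counts in replicate 2 of liver of label Crtc1-/- and 1 to 10 in the other liver libraries, and Cyp3a16 had 1 count in all 8 libraries.

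The 3 male-predominant P450s, Cyp2d9, Cyp4a12a and Cyp4a12b, were lower in both libraries labelled Crtc1-/- than in both labelled Crtc1+/+, as were 26.4% of all genes. None passed the adjusted limit in edgeR, and 1 of 3 had an unadjusted p under 0.05, where 17.3% of all genes had. DESeq2 called 1, Cyp2d9, where it called 2.66% of all genes. Cyp2d9, another testosterone hydroxylase, was at 671 and 545 CPM in liver of label Crtc1-/- and at 1481 and 2016 in liver of label Crtc1+/+ (608 ± 88.6 against 1749 ± 378, SD, n = 2). On the log2 scale the fold change was -1.52 (SE 0.28, adjusted p = 0.083, edgeR), just outside the adjusted limit though past the study's own limit. Its low neighbour Cyp2d12 moved alongside, with 58.0 and 40.1 counts against 139 and 191 (-1.67, SE 0.35, adjusted p = 0.121).

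Cyp4a12a and Cyp4a12b, arachidonic acid hydroxylases of the male kidney and liver, set the 2 libraries labelled Crtc1-/- apart from each other. Cyp4a12a had 2734 counts in replicate 1 and 58.6 in replicate 2, against 4149 and 5905 in liver of label Crtc1+/+. Cyp4a12b had 1226 and 30.4 against 1367 and 2162. Both copies were thus low in replicate 2 and not in replicate 1, and the share of Cyp4a12a in the pair was between 65.9% and 75.2% in all 4 liver libraries. The log2 fold change of Cyp4a12a was -1.83 (SE 1.08, adjusted p = 0.399), -6.24 without replicate 1 labelled Crtc1-/- and -0.88 without replicate 2.

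**Figure D3:**
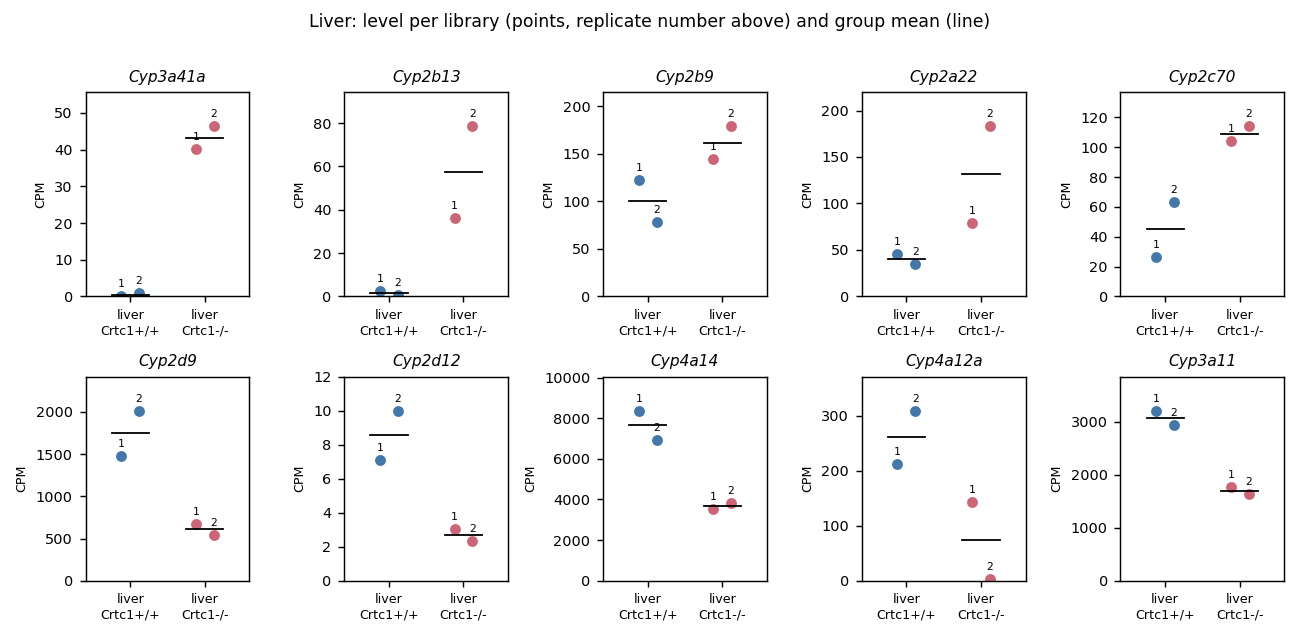
CPM (scaled by TMM, linear axes from 0) of 10 P450s in the 4 liver libraries, as points with the replicate number, and group means as lines. Cyp3a41a and Cyp2b13 lie near 0 in both Crtc1+/+ libraries, and Cyp4a12a is at 3.42 CPM in replicate 2 labelled Crtc1-/- against 143 in replicate 1.

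Among the xenobiotic-metabolising Cyp2a, Cyp2c and Cyp2d genes the liver values went both ways. All 4 Cyp2a genes had positive log2 fold changes (median 0.91). Cyp2a22 had 1515 and 3134 counts against 894 and 666 (1.70, SE 0.39, adjusted p = 0.123), and Cyp2a5, the coumarin hydroxylase, was higher in both Crtc1-/- libraries (553 and 624 CPM against 343 and 400) with 0.67 (adjusted p = 0.242). No Cyp2a gene was called (edgeR), 3 of 4 had an unadjusted p under 0.05 (17.3% of all genes did) and DESeq2 called Cyp2a22 (2.66% of all genes). The 12 tested Cyp2c genes, epoxygenases and hydroxylases of arachidonic acid, had a median of 0.06. Cyp2c70, which hydroxylates chenodeoxycholic acid to the muricholic acids of mouse bile, had 1986 and 1954 counts against 516 and 1211 (1.28, SE 0.38, adjusted p = 0.179). Cyp2c38 had 640 and 695 counts against 1397 and 1308 (-0.92, adjusted p = 0.159), and Cyp2c29 went the same way (-0.66, adjusted p = 0.256). Cyp2c37 was split by library rather than by genotype, with 3638 and 11917 counts in liver of label Crtc1-/- and 5645 and 6164 in liver of label Crtc1+/+. Cyp2d10 and Cyp2d26, the most abundant Cyp2d genes with Cyp2d9, differed by -0.16 and -0.23 and were not called.

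Among the inducible P450s tested in liver, 5 had a log2 fold change below 0 and 2 above. Both Crtc1-/- libraries lay below both Crtc1+/+ libraries in 4 and above both in 1, where 26.4% and 25.8% of all genes did so. Of 7 tested in liver none passed the adjusted limit (edgeR), 2 had an unadjusted p under 0.05, where 17.3% of all genes did, and DESeq2 called those 2, Cyp3a11 and Cyp4a14, where it called 2.66% of all genes. Cyp4a14 was at 3538 and 3831 CPM in liver of label Crtc1-/- and 8372 and 6922 in liver of label Crtc1+/+, a log2 fold change of -1.05 (SE 0.26, adjusted p = 0.134). Its neighbour Cyp4a10 had overlapping groups, at 5950 and 7909 CPM against 7918 and 7568 (-0.16, adjusted p = 0.784). Cyp3a11 was at 1762 and 1629 CPM against 3214 and 2947 (-0.86, SE 0.25, adjusted p = 0.170). Cyp1a2, which metabolises caffeine, was at 417 and 358 CPM against 515 and 540 (-0.45, adjusted p = 0.372), and Cyp2e1 differed by -0.32 (adjusted p = 0.552). In the low Cyp4a32 the difference was 1.07 (SE 0.31, adjusted p = 0.173), and 18.2% of its 100-base windows occurred in another gene (12.5% in Cyp4a10).

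Summing each subfamily, which keeps reads shared between its copies inside one value, gave no call in liver among 17 sums (edgeR, where 0.0429% of all genes and sums were called; 3 sums had an unadjusted p of 0.0171 or less, and DESeq2 called 1). Cyp2b was the highest of the sums that came near (log2 fold change 1.07, SE 0.30, adjusted p = 0.162), and Cyp3a was on the other side of 0 (-0.76, SE 0.25, adjusted p = 0.202), with Cyp3a11 as its most abundant member. The orphan Cyp2u sum, that is Cyp2u1 alone, was -1.06 (adjusted p = 0.214). Of the genes that serve the P450s, none of the 6 for redox partners and heme supply (Por, Cyb5a, Cyb5b, Cyb5r3, Pgrmc1 and Alas1) and none of 11 tested receptors and factors (Nr1i3, Nr1i2, Ppara, Stat5b, Bcl6, Cux2 and others) was called in liver, none had an unadjusted p under 0.05, and DESeq2 called none. Stat5b, which carries the growth hormone signal, differed by 0.12, and Bcl6 and Cux2, factors of the male and female pattern, by -0.35 and 0.01. Of 11 tested P450s of other families edgeR called none, and 2 had an unadjusted p under 0.05, where 17.3% of all genes had one. DESeq2 called Cyp17a1, a steroid hydroxylase, where it called 2.66% of all genes. Its log2 fold change was 1.84 in edgeR (adjusted p = 0.0668).

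Between tissues, the P450s were mostly liver genes. In the libraries labelled Crtc1+/+, 51 of 63 tested members differed, 46 higher in liver and 5 higher in eWAT, where 54.9% of all genes differed (19.8% higher in liver and 35.0% higher in eWAT). Summed over the members, eWAT of label Crtc1+/+ held 886 and 495 FPKM, against 22813 and 24360 in liver. Cyp1b1, an estrogen hydroxylase found outside the liver, was among the 5 higher in eWAT, with 441 and 665 counts in eWAT of label Crtc1+/+ and 3 and 4 in liver (log2 difference, liver minus eWAT, -6.01, SE 0.46, adjusted p = 0.000526). Cyp2j13, Cyp2b23, Cyp4a30b and Cyp4f40, the other 4 higher in eWAT, had no count in any liver library. Cyp4b1, which oxidises short and medium fatty acids and lung toxicants, was not called between the tissues of the Crtc1+/+ label (-0.17, adjusted p = 0.703, edgeR). Its FPKM were 3.53 and 2.14 in liver and 7.16 and 9.65 in eWAT of that label, so the size of its difference depends on the scaling. In the libraries labelled Crtc1-/- only 9 members differed between tissues, 4 higher in liver and 5 in eWAT (0 and 7 with library-size scaling), where 27.8% of all genes did (8.89% and 18.9%). Without replicate 2 of eWAT of label Crtc1-/- 56 of 65 did (36.2% of all genes), and 3 without either liver library of that label. The 51 of the Crtc1+/+ label were 7 to 13 when 1 of its own 4 libraries was left out.

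In eWAT 6 P450s differed between the labelled genotypes among 58 tested, with 5 above and 1 below in those of label Crtc1-/-, where 12.2% of all genes were called (6.65% higher, 5.54% lower). The 5 that rose were Cyp4b1, Cyp2d22, Cyp4v3, Cyp2e1 and Cyp4f17, and the one that fell was Cyp4a30b. At the study's limit 8 passed, 6 higher and 2 lower, where 15.9% of all genes passed (8.37% higher, 7.54% lower), and 15 of the 58 had an unadjusted p under 0.05, where 33.3% of all genes had. DESeq2 called 15, where it called 30.0% of all genes. None of these 4 shares was above that of all genes. Without replicate 1 labelled Crtc1-/-, which leaves the library with hepatocyte markers on that side, the count of 6 was 45 of 62, 44 of them higher in the Crtc1-/- label, where 19% of all genes were called. The adipocyte and endothelium markers were higher, and the epididymis markers lower, in both libraries labelled Crtc1-/-. Of the 12 adipocyte markers 9 rose, of the 6 endothelium markers 6 rose, and of the 16 epididymis markers 16 fell. Of the 7 macrophage markers 3 rose. Of the 7 testis and sperm markers 2 fell, as did 1 of 5 bile duct and 1 of 5 fibroblast markers. What part these differences have in the values that follow was not tested.

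Cyp4b1 (NCBI Gene 13120, chr4:115624698-115647721) had 7144 and 4178 counts in eWAT of label Crtc1-/- and 226 and 292 in eWAT of label Crtc1+/+ (341 ± 72.5 against 13 ± 3.01 CPM, SD, n = 2). The groups were far apart, with a log2 fold change of 4.71 (SE 0.40, adjusted p = 0.0160, edgeR). In liver it was at 2.98 to 6.16 CPM in all 4 libraries, so its high level was seen in eWAT of label Crtc1-/- alone of the 4 groups. Cyp2d22 had 4294 and 5277 counts against 588 and 354 (3.69, SE 0.43, adjusted p = 0.0184). Cyp4v3, a fatty acid omega-hydroxylase of many tissues, had 2417 and 4431 against 369 and 288 (3.75, SE 0.52, adjusted p = 0.0226). Cyp2e1 was at 4986 and 8582 CPM against 498 and 492 (3.78, SE 0.60, adjusted p = 0.0275), the highest P450 in every eWAT library with 34.8% to 84.9% of their summed FPKM. Cyp4f17 had 529 and 349 counts against 143 and 163 (1.80, SE 0.36, adjusted p = 0.0414).

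Without replicate 2 of eWAT of label Crtc1-/-, the library with hepatocyte markers, Cyp4b1 was at 4.87, Cyp2d22 at 3.32, Cyp2e1 at 3.30 and Cyp4v3 at 3.0, each with an adjusted p of 0.00817 or less (edgeR), where the lone library is assumed to vary like its counterparts. Cyp4f17 was then at 1.88 with an adjusted p of 0.0663. Without either library labelled Crtc1+/+ no member was called, with Cyp4b1 at 4.49 (adjusted p = 0.143) and 4.99 (0.252). Related Cyp4f genes were also higher in both Crtc1-/- libraries without passing the limit, with Cyp4f18, a leukotriene B4 hydroxylase of leukocytes, at 278 and 92 counts against 73 and 31 (2.08, adjusted p = 0.121) and Cyp4f16 at 577 and 230 against 213 and 169 (1.33, adjusted p = 0.124). Cyp2j9 had 215 and 146 counts against 54 and 65 (1.88, SE 0.47, adjusted p = 0.0644), and Cyp2u1 22 and 49 against 9 and 7 (2.51, adjusted p = 0.114). Cyp2b10 had 48 and 63 counts against 4 and 9 (3.39, SE 0.82, adjusted p = 0.0603), just outside the adjusted limit. The sums of Cyp4b, Cyp4v and Cyp2e, each a single gene, were the only 3 of 17 subfamily sums called in eWAT (12.6% of all genes and sums were).

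Another 5 low members were seen almost entirely in eWAT of label Crtc1+/+. Cyp4a30b had 22 and 24 counts there and 0 and 0 in eWAT of label Crtc1-/-, at least 6.18-fold lower against a floor of 3 counts per library (adjusted p = 0.0434, edgeR). Cyp4f40 had 11 and 19 against 0 and 0, at least 4.06-fold lower (adjusted p = 0.0593). Cyp2j13 had 130 and 165 counts against 9 and 0 (log2 fold change -4.81, adjusted p = 0.0818). Cyp2b23 had 17 and 19 against 2 and 0, a ratio of 14.7 (exact 95% counting interval 3.77 to 126), and Cyp2j11 had 12 and 8 against 1 and 0, a ratio of 16.3 (2.60 to 675). All 5 had no count in the 4 liver libraries, and the epididymis markers were high in the same 2 libraries. Cyp1b1 was also higher there, with 441 and 665 counts against 222 and 152, a log2 fold change of -1.29 that missed the limit (SE 0.40, adjusted p = 0.0980).

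**Figure D4:**
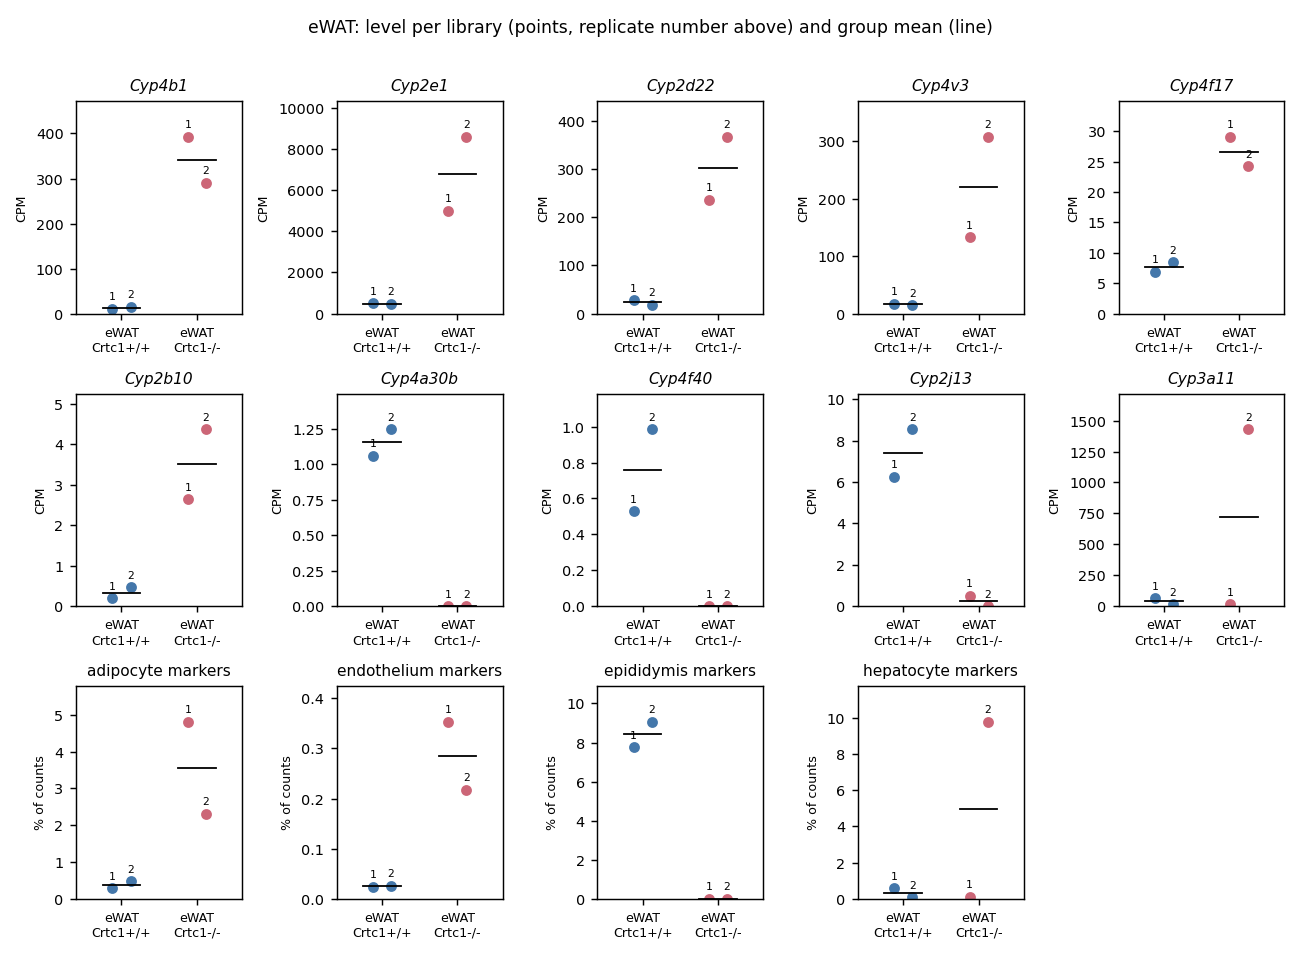
CPM (scaled by TMM, linear axes from 0) of 10 P450s in the 4 eWAT libraries, and below them the percent of all counts in 4 lists of cell type markers. Cyp4b1 to Cyp2b10 are high in both libraries labelled Crtc1-/- as the adipocyte and endothelium markers are, Cyp4a30b, Cyp4f40 and Cyp2j13 in both labelled Crtc1+/+ as the epididymis markers are, and Cyp3a11 in replicate 2 labelled Crtc1-/- as the hepatocyte markers are.

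Most of the positive eWAT differences rested on 1 library. Of the 58 members tested 51 had a positive log2 fold change, with a median of 3.88. Without replicate 2 labelled Crtc1-/-, 36 of those 51 were below 0 and the median of the 59 members then tested was -1.30, while 15 stayed above 0. Cyp2s1, at 4 to 13 counts in the liver libraries, had 158 and 51 counts in eWAT of label Crtc1-/- and 104 and 60 in eWAT of label Crtc1+/+, so its highest value was in the other library of that label. Cyp1a2 had 29 and 4546 counts in eWAT of label Crtc1-/- and 238 and 28 in eWAT of label Crtc1+/+, Cyp4a10 had 688 and 68633 against 3806 and 528, and Cyp3a11 had 299 and 20600 against 1362 and 302. None of the 3 was called (log2 fold changes 4.61, 4.51 and 4.15, adjusted p = 0.229, 0.222 and 0.213), and without that library the values were -2.0, -1.46 and -1.30. No Cyp3a gene was called in eWAT by edgeR, none had an unadjusted p under 0.05, and DESeq2 called none.

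The genotype difference itself differed between the tissues for 5 members of 63 (edgeR interaction test in 1 fit of all libraries, liver minus eWAT). That share is near the 6.94% of all genes, 3.16% above 0 and 3.78% below. The 5 members were Cyp4b1 (-4.94, SE 0.54, adjusted p = 0.0095), Cyp2d22 (-3.51, SE 0.59, adjusted p = 0.0205), Cyp4v3 (-4.25, SE 0.75, adjusted p = 0.0231), Cyp4f17 (-2.69, SE 0.54, adjusted p = 0.0333) and Cyp2b10 (-3.15, SE 0.69, adjusted p = 0.0426). The count was 38 of 65 without replicate 1 of eWAT of label Crtc1-/- (13.9% of all genes) and 0 or 1 without any 1 of the liver libraries or of the eWAT libraries labelled Crtc1+/+. Each of the 5 was higher in eWAT of label Crtc1-/- and differed by between -0.98 and 0.18 in liver. For Cyp3a41a and Cyp2b13 the difference between tissues was 3.08 (SE 2.65) and 0.54 (SE 2.56), which these libraries could not tell from 0. Among the partners of the P450s, Por (2.40, adjusted p = 0.0327) and Cyb5a (1.79, adjusted p = 0.0466) rose in eWAT, 2 of 6 listed, where 6.65% of all genes rose. Of the receptors and factors Cebpa (3.10, adjusted p = 0.0178), Rxra (2.32, adjusted p = 0.0251) and Stat5b (1.54, adjusted p = 0.0309) rose, 3 of 11 tested. None of the 13 tested P450s of other families was called in eWAT by edgeR. An unadjusted p under 0.05 was found for 3, where 33.3% of all genes had one. DESeq2 called 2, Cyp27a1 and Cyp51, where it called 30.0% of all genes.

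Because eWAT libraries held hepatocyte transcripts, the liver P450s in them can be set against the hepatocyte markers of the same library. Per 10000 hepatocyte marker counts Cyp3a41a was at 2.25 and 2.15 in liver of label Crtc1-/- and at 0 and 0.0529 in liver of label Crtc1+/+. In eWAT it was at 2.71 (29 counts, exact 95% Poisson interval 1.82 to 3.89) in replicate 1 labelled Crtc1+/+, at 2.63 (5 counts, 0.854 to 6.14) in replicate 1 labelled Crtc1-/- and at 1.15 (199 counts, 0.999 to 1.33) in replicate 2 labelled Crtc1-/-. The interval of the eWAT library labelled Crtc1+/+ thus covered both values of liver of label Crtc1-/- and lay above both liver libraries of its own label. Cyp2b13 was likewise above the liver libraries of its label, at 1.68 (18 counts, 0.997 to 2.66) in replicate 1 of eWAT of label Crtc1+/+ against 2.03 and 3.64 in liver of label Crtc1-/- and 0.124 and 0.0291 in liver of label Crtc1+/+. Cyp2d9 was at 34.5 in that library, near the 37.6 and 25.3 of liver of label Crtc1-/- and below the 80.3 and 102 of liver of label Crtc1+/+. Cyp4a12a in the same eWAT library was at 13.4 (11.3 to 15.8), with liver of label Crtc1+/+ (11.6 and 15.6) and above liver of label Crtc1-/- (8.02 and 0.159). In replicate 2 of eWAT of label Crtc1+/+, however, Cyp4a12a was at 93.1 (118 counts), above every liver library. Its counts in eWAT thus did not keep to the hepatocyte markers. In replicate 2 of eWAT of label Crtc1-/- Cyp2d9 was at 73.5 and Cyp4a12a at 10.3, both above the 2 liver libraries of the same label. Replicate 2 of eWAT of label Crtc1+/+, with 12703 hepatocyte marker counts, had none of Cyp3a41a and Cyp2b13, with an exact 95% upper bound of 2.90 per 10000.

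**Figure D5:**
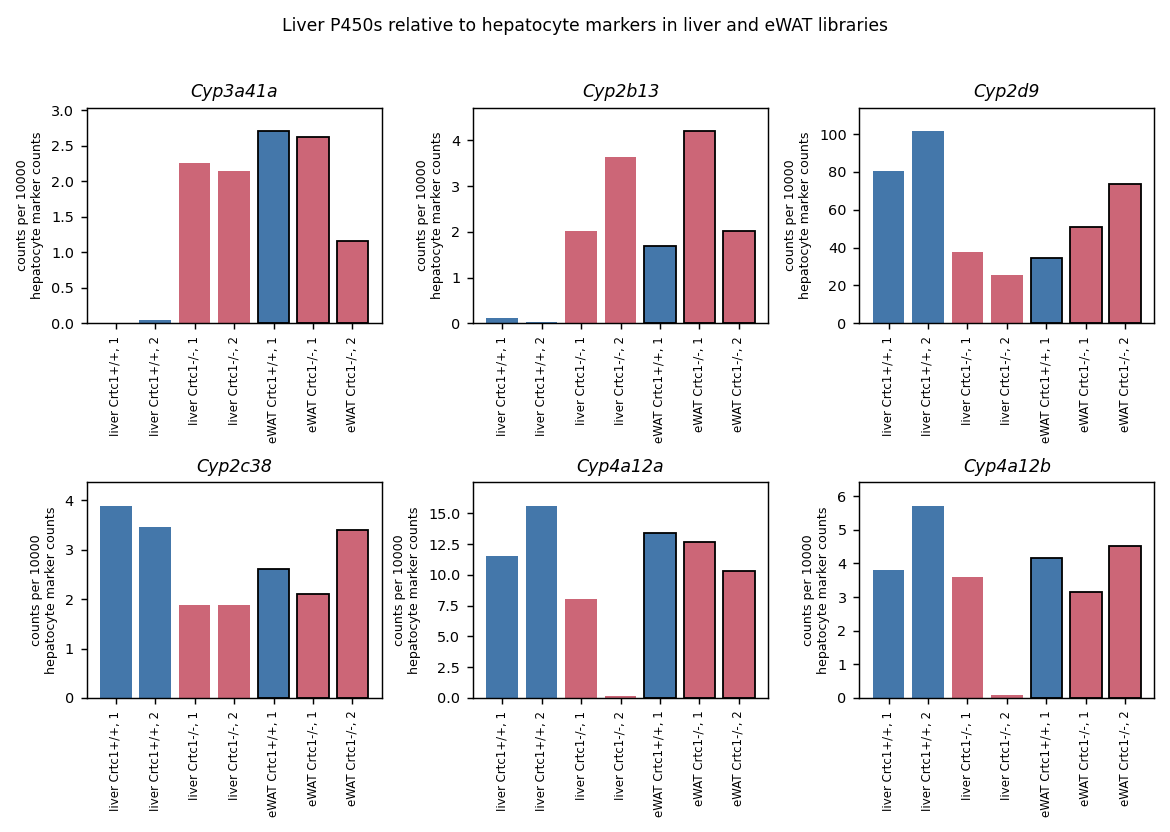
Counts of 6 liver P450s per 10000 counts of the 12 hepatocyte markers in the 4 liver libraries and in 3 eWAT libraries (outlined bars; blue Crtc1+/+, red Crtc1-/-; replicate 2 of eWAT of label Crtc1+/+, with few such counts, is left out). Replicate 1 of eWAT of label Crtc1+/+ lies with liver of label Crtc1-/- for Cyp3a41a and Cyp2d9 but with liver of label Crtc1+/+ for Cyp4a12a, which is near 0 in 1 liver library only. In the library left out Cyp4a12a was at 93.1, above every liver library.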

How the data were processed

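Total RNA of liver and eWAT was sequenced at BGI, with 2 mice per genotype. The authors deposited estimated counts per gene, partly not whole numbers, and FPKM values (scaled to transcript length and library size) for 19348 genes in 8 libraries. Processing notes of the submitters name HISAT, Bowtie2 and GRCm38.p6, and the counting tool and annotation are not given in the sources used here. Libraries were grouped by labelled tissue and genotype.

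Counts were rounded for the tests and totalled 16560085 to 19721481 per library, which limits low genes most. Within a tissue, genes passing filterByExpr were scaled by TMM and tested with edgeR 4.0.16 (R 4.3.3) by the quasi-likelihood F test, two-sided, with Benjamini-Hochberg adjustment over all genes. Tissue differences and their interaction with genotype came from 1 fit of all 8 libraries, which treats them as independent. Standard errors (SE) were taken as the size of the log2 fold change over the root of F. CPM are TMM-scaled, and exact Poisson intervals cover counting error only. Alternatives were DESeq2 1.42.0, other scalings and filters, limma 3.58.1 on log2(FPKM + 1) and log2(FPKM + 0.1), a replicate block, and each library left out. Windows shared between transcripts came from GENCODE M21, and scripts were tested on simulated data.

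The members and lists were chosen with earlier results of these data known. Named were members past either limit, the leading members of subfamilies, and the listed sex-biased, inducible, redox partner, receptor and other P450 genes. Cyp2a5, Cyp2c29, Cyp2c37, Cyp2c38, Cyp2d10, Cyp2d26, Cyp2j9, Cyp2s1, Cyp2u1 and Cyp4f16 to Cyp4f18 were partly added after their values were seen. Shared protein sequence was not analysed here.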

Additional observations from a re-analysis of the deposited data

Results flagged for a closer look

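The difference between the labelled genotypes was not the same in liver and eWAT for 5 P450s, by edgeR's interaction test over all genes (liver minus eWAT, adjusted p under 0.05). These were 5 of 63 tested, a share near the 6.94% of all genes that passed, so the count does not set the P450s apart. The differences on the log2 scale were -4.94 for Cyp4b1, -3.51 for Cyp2d22, -4.25 for Cyp4v3, -2.69 for Cyp4f17 and -3.15 for Cyp2b10. Within eWAT the first 4 passed the adjusted limit and Cyp2b10 did not (3.39, adjusted p = 0.0603, edgeR), and within liver none did. The adipocyte, endothelium and epididymis markers differed between the eWAT libraries of both labels in the same comparison, and their part in these 5 differences was not tested. With 2 libraries a group, a single library that stands apart from its own group could not be tested for.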

How the results depend on the processing

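In liver, the 2 members called were 9 with DESeq2 (4 higher, 5 lower), 7 with no filter, 1 with near-identical copies summed (Cyp2b13 is then part of a sum), and 0 with limma at either pseudocount or with all 8 libraries in 1 fit. The 8 past the log2 fold change limit were 5 with limma at either pseudocount and 0 in the fit of all libraries. In eWAT the 6 members called were 15 with DESeq2 and 11 in the fit of all libraries, and the 8 past the limit were 14 with DESeq2 and 5 at a mean count of at least 50. The interaction count of 5 was 9 with DESeq2 and 3 with library-size scaling, the 9 tissue differences of the Crtc1-/- label were 17 with DESeq2, and the subfamily sums called were 1 in liver (0 before) and 7 in eWAT (3 before) with DESeq2. The cause of these changes was not tested.

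Replicate numbers are only shared numbers here (r = 0.074 in liver and 0.020 in eWAT between same-numbered deviations of both labels, and 0.152 for Crtc1+/+ and 0.036 for Crtc1-/- between those of both tissues, which the fit of all 8 libraries treats as independent). With the replicate number as a block, 2 members were called in liver, 0 in eWAT, 1 for the interaction and 0 eWAT sums, and over all genes 82 in liver and 0 in eWAT.

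Leaving out 1 library gave 1 to 20 called members in liver (4 to 17 at the limit), 0 to 45 in eWAT (2 to 45 at the limit), 0 to 38 for the interaction, 7 to 52 and 3 to 56 for the tissue differences of the Crtc1+/+ and Crtc1-/- labels, and 0 to 4 and 0 to 13 sums in liver and eWAT. Cyp2c69 in liver changed sign, to 0.0312 with upper-quartile scaling, 0.02 at a mean count of at least 50 and 0.0012 with limma at either pseudocount, with -0.22 to 0.10 over left-out libraries, as Cyp4a10 did in liver (-0.388 to 0.0406). In eWAT the left-out libraries gave -2.0 to 6.88 for Cyp1a2, -1.46 to 6.57 for Cyp4a10 and -1.30 to 5.64 for Cyp3a11. Of the single-gene values compared, 521 kept direction and side of the limit, 49 gained a call, 34 lost one and 10 changed sign.

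The median of all genes moved with the scaling, in eWAT from -0.05 to -0.25 (upper-quartile) and -0.35 (library size), in the tissue difference of the Crtc1+/+ label from -0.61 to -2.0 and of the Crtc1-/- label from -0.20 to -1.33 (library size), so small differences there depend on it. With 2 libraries a group an exact permutation test cannot go below 0.333.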

Other observations

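Other liver P450s in the eWAT libraries can also be given per hepatocyte marker count. Cyp2c38 was at 3.89 and 3.46 per 10000 hepatocyte marker counts in liver of label Crtc1+/+ and 1.88 and 1.88 in liver of label Crtc1-/-. In eWAT it was at 2.62 and 4.72 in the libraries labelled Crtc1+/+ and at 2.10 and 3.40 in those labelled Crtc1-/-, on 28, 6, 4 and 586 counts in that order. Cyp4a12a was at 93.1 (exact 95% Poisson interval 77.1 to 111) in replicate 2 of eWAT of label Crtc1+/+ against 0.159 to 15.6 in the 4 liver libraries, where Cyp4a12b was at 4.49 (1.59 to 9.95) in that eWAT library. Cyp4a12a thus made up 95.4% of the pair there and 65.9% to 75.2% in liver.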
